A study of Bos taurus with 6 samples.

Results

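The genes described here encode the actin filament and the proteins that build, cap, cut and pull on it: actins, actinins, myosin heavy and light chains, unconventional myosins, tropomyosins, actin-related proteins with the Arp2/3 complex, capping protein, cofilins and the membrane linkers ezrin, moesin and radixin. They were picked by a rule on the gene symbol, set with earlier results of these data known. Of the 9537 genes in the deposited table, 54 carried such a symbol. The RefSeq gene table of assembly ARS-UCD2.0 lists 87 protein-coding symbols of the same families, and the other 33 were not analysed here. The libraries were made from bovine (Bos taurus) blastocysts produced in vitro in SOFaaci medium and were labelled by survival after vitrification, which is rapid freezing without ice. There were 3 libraries of high cryosurvival embryos (coded V in the labels) and 3 of low cryosurvival embryos (coded NV), and no other treatment or genotype is named for either group. The labels name no culture or pool for any library and no time of RNA collection relative to vitrification, so the p-values measure only the spread between these libraries, which may be technical.

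Actin filaments under the plasma membrane give embryonic cells their shape and tension. Non-muscle myosin II, an assembly of heavy chains, regulatory light chains and essential light chains, pulls on these filaments and drives the compaction of the embryo and the tightening of the trophectoderm epithelium around the blastocoel. The Arp2/3 complex starts branched filaments, capping protein ends their growth, cofilin severs them, and ezrin, moesin and radixin tie them to the membrane at microvilli.

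Values are CPM, read counts scaled to a common library size, and are not corrected for transcript length, so levels were compared between libraries and not between genes. Between 14651477 and 19467022 reads per library were in the table, with the fewest in low cryosurvival library 2 and 17591314 or more in each of the others. Low cryosurvival library 2 stood apart from the other 5. The SD over all genes of its log2 deviation from the median library was 0.54, against 0.17 to 0.29 in the others, and over the 54 cytoskeletal genes it was 0.63, against 0.15 to 0.29. Results are therefore given with and without it. That library was singled out from these same values, so every limma p-value and call without it follows an exclusion chosen from the data. Such values and calls are given as a description and not as a test of the groups. Trophectoderm markers, among them KRT8 and KRT18, summed to 31241 to 34484 CPM in high and 26714 to 36818 CPM in low cryosurvival libraries (7 of 10 listed markers measured), and those of the inner cell mass and epiblast, among them NANOG and POU5F1, to 1270.3 to 1383 and 1185 to 1247 CPM (6 of 7 measured). Hypoblast markers summed to 2288 to 2982 CPM in high and 1543 to 3052 CPM in low libraries (9 of 10 measured), cumulus and granulosa markers to 402 to 526 and 380.3 to 524 CPM (5 of 10), and smooth muscle markers to 175 to 191 and 188 to 264 CPM (6 of 6). The inner cell mass and epiblast sum was lower in every low library than in any high library, and the other sums overlapped. These sums follow their markers with the highest CPM. Single markers, named after their values were seen, also separated the groups. NANOG averaged 16.2 CPM in low and 38.7 CPM in high libraries, and GATA2 699 and 929. The hypoblast genes BMP2 averaged 5.7 and 3.72 and RSPO3 10.7 and 5.33. Their groups did not overlap and none was called by limma (adjusted p from 0.164 to 0.258). Other hypoblast genes without overlap went both ways, GATA4 at 11.1 and 7.82 CPM and HNF4A at 53.2 and 72.8 (limma adjusted p = 0.355 and 0.415). TFAP2C of the trophectoderm and FSHR of granulosa cells were lower in low libraries without overlap (limma adjusted p = 0.78 and 0.577). Without low library 2, limma called NANOG, GATA2, BMP2 and RSPO3, and did not call GATA4, HNF4A, TFAP2C or FSHR. It also called the hypoblast gene COL4A1 and the epiblast gene LIN28A higher in low cryosurvival (log2 difference 0.88 and 0.96, adjusted p = 0.0203 and 0.0277). DPPA3 was called lower by limma (log2 difference -0.69, adjusted p = 0.0352), as was the granulosa marker INHBA (-0.53, 0.0289), at 1.65 to 4.13 CPM. The part of the cell lineages in the results below was not tested. In such bulk samples, fewer cells of a type and less RNA per cell cannot be told apart.

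The cytoskeletal genes as a set were centred near 0. Their median log2 difference, low minus high cryosurvival on the log2(CPM + 1) scale, was 0.02, against 0.00 over all genes, and 28 were higher and 26 lower in low cryosurvival embryos. Differences were tested with limma, and a gene was called where its p, adjusted by Benjamini-Hochberg over the 9537 genes, was below 0.05. Limma called 0 of the 54 genes, as it called 0% of all genes, and voom, run on reads recovered from the CPM values, called 0 as well. At an unadjusted p below 0.05 there were 4 of the 54 genes (7.41%), MYH1, MYH3, MYO1F and ACTR1B, each lower in low cryosurvival, against 12.0% of all genes. The authors' deposited table called 2 of the 54 genes, MYH1 and MYH3, both lower in low cryosurvival embryos, where 0.283% of all genes were called in that direction and 0.912% in the other; these are 3.7% of the 54 genes, against 1.20% of all genes called. The 3 low and 3 high libraries did not overlap for 10 of the 54 genes (18.5%), against 21.0% of all genes. Of these 10, 8 were lower in low cryosurvival (background 10.6%) and 2 were higher (10.4%).

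**Figure D1:**
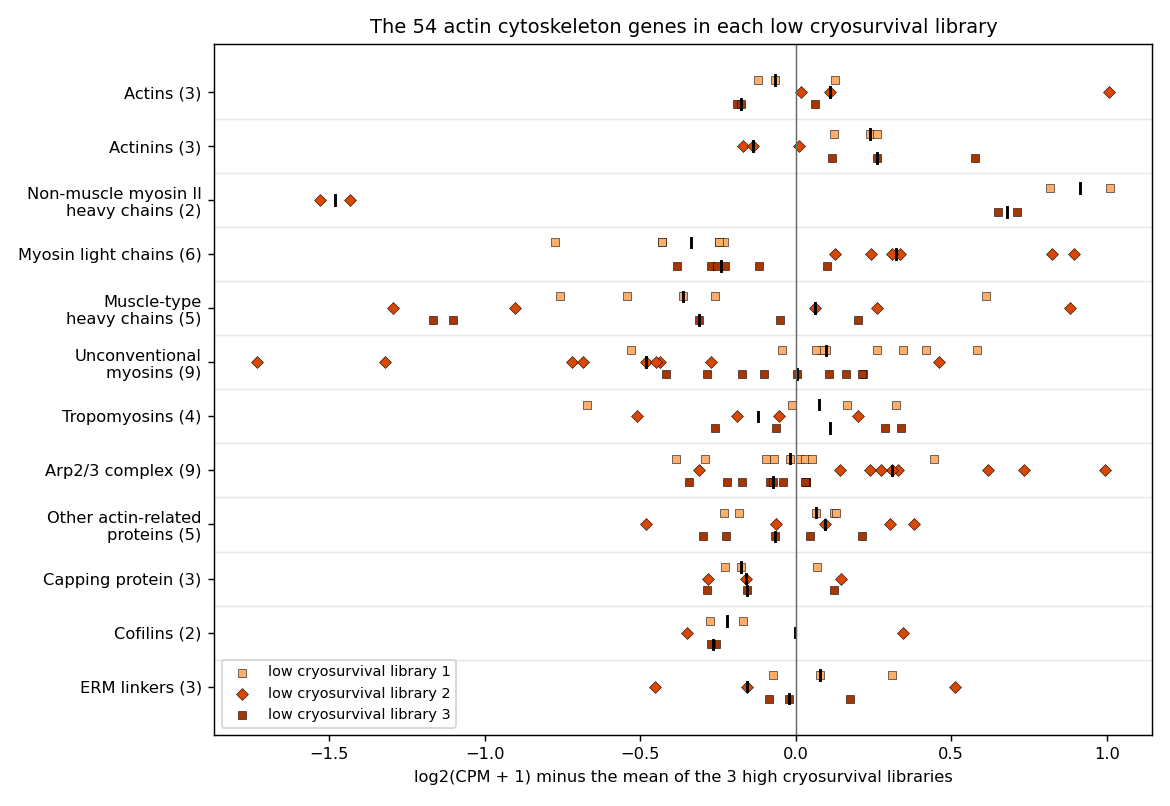
Deviation of each of the 54 genes from the mean of the 3 high cryosurvival libraries (x axis, log2(CPM + 1) scale) in each low cryosurvival library, grouped by role (y axis, number of genes in brackets). Each point is a gene and the black tick is the median of the role in that library. In low library 2 both non-muscle heavy chains lie far to the left and most light chains and Arp2/3 subunits to the right, while low libraries 1 and 3 show the heavy chains on the right.

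The motor that tenses the cell cortex had the largest standard errors of the 54 genes, 0.61 on the log2 scale for both of its heavy chains. MYH9, the heavy chain of non-muscle myosin IIA, was at 2386, 2638 and 1667 CPM in high libraries 1, 2 and 3 and at 3862, 758 and 3435 CPM in low libraries 1, 2 and 3. Low libraries 1 and 3 lay above every high library, and low library 2 lay below them all, at 27.1% of the mean of the other 5. MYH10, the heavy chain of non-muscle myosin IIB, was at 332, 352 and 267 CPM in the high libraries and 635, 116 and 516 CPM in the low ones. It had the same order of libraries, with low library 2 at 27.6% of the mean of the others. Over all genes, low libraries 1 and 3 lay above every high library in 27.6%, and low library 2 below the other 5 in 35.5%. The log2 differences over all 6 libraries were -0.02 for MYH9 (95% interval -1.47 to 1.43) and 0.10 for MYH10 (-1.35 to 1.54), and neither was called (limma adjusted p = 0.995 and 0.983). Without low library 2, MYH10 was called higher in low cryosurvival, with a log2 difference of 0.86 ± 0.15 (SE) and an adjusted p of 0.0241 by limma. Without that library MYH9 had a log2 difference of 0.73 ± 0.20 (SE) and was not called (limma adjusted p = 0.0545). Both genes were extreme in the library removed, which was singled out from the same data, so these p-values are descriptive. The low over high ratios of the means without that library were 1.64 for MYH9 and 1.81 for MYH10. The 2 heavy chains ran in parallel: the ratio of MYH9 to MYH10 CPM lay between 6.08 and 7.49 in all 6 libraries.

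The light chains ran the other way in the same libraries. MYL6, the essential light chain of non-muscle myosin II, was at 1294, 1279 and 1449 CPM in the high libraries and 993, 2373 and 1108 CPM in the low ones. Low libraries 1 and 3 were the lowest of the 6 and low library 2 was the highest. MYL12A and MYL12B encode near-identical regulatory light chains, which phosphorylation switches on, and lie next to each other in the RefSeq table. How reads that fit both were counted is not stated, so the split between them is uncertain. MYL12A was at 1074, 1040.4 and 1174 CPM in high and 923, 1380 and 934 CPM in low libraries. MYL12B was at 158, 156 and 156 CPM in high and 116, 171 and 120 CPM in low libraries. MYL9, another regulatory light chain, was at 451, 437 and 408 CPM in high and 368, 535 and 362 CPM in low libraries. In all 4 genes low libraries 1 and 3 lay below every high library and low library 2 above. Over all genes, 27.5% had low libraries 1 and 3 below every high library. Low library 2 was above the other 5 in 34.4% of all genes, and the share with both was not computed. Over all 6 libraries none of the light chains was called (limma adjusted p from 0.715 to 0.988), and the log2 difference was 0.04 for MYL6 (95% interval -0.73 to 0.81) and -0.23 for MYL12B (-0.64 to 0.18). Without low library 2 all 6 light chains had a negative log2 difference, with a median of -0.30, and MYL12B, singled out after its value was seen, was called lower at -0.41 ± 0.08 (SE, limma adjusted p = 0.032). MYL6 was then at -0.35 ± 0.10 (SE) and was not called (limma adjusted p = 0.0663). The remaining 2, MYL6B and MYL2, a cardiac and slow muscle chain, were at 2.86 to 7.81 CPM and 0.2 to 1.89 CPM, and their groups overlapped.

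**Figure D2:**
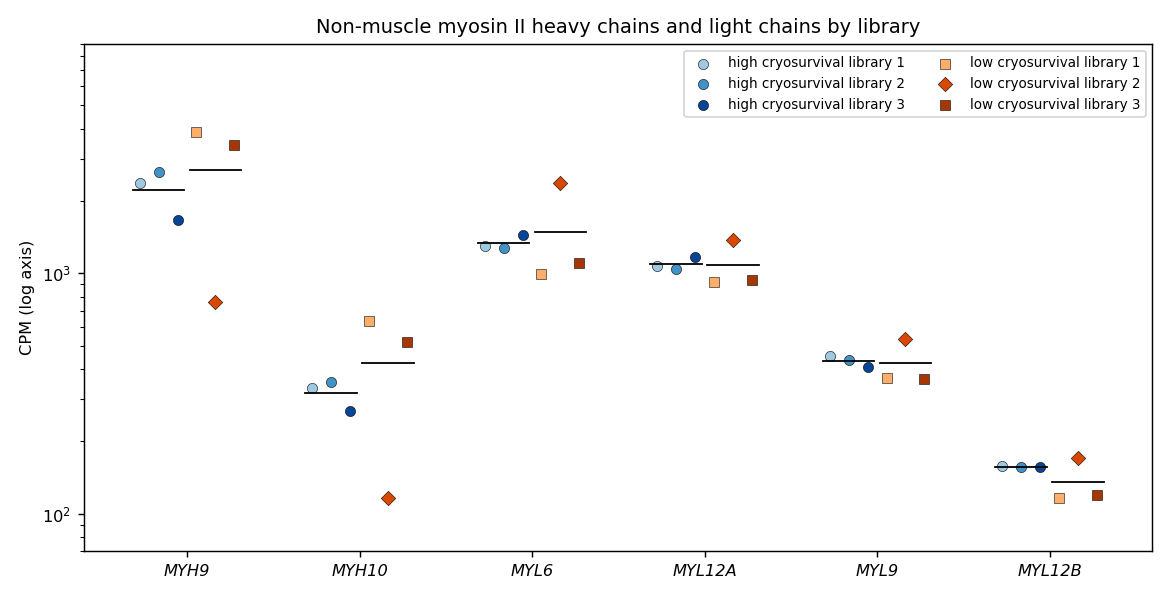
CPM (log axis) of the 2 non-muscle myosin II heavy chains and 4 light chains in each of the 6 libraries; horizontal lines are group means. Low libraries 1 and 3 (squares) are above the high libraries (circles) for MYH9 and MYH10 and below them for the light chains, and low library 2 (diamonds) is on the opposite side each time.

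The balance of heavy to light chain within a library put these values in 1 measure. The ratio of MYH9 to MYL6 CPM was 1.84, 2.06 and 1.15 in high libraries 1, 2 and 3 and 3.89, 0.319 and 3.1 in low libraries 1, 2 and 3. High library 3 was the lowest of its group, as it was for MYH9 and MYH10 themselves. The groups overlapped only through low library 2. Heavy chains and most unconventional myosins are large proteins with long messenger RNAs, and light chains and Arp2/3 subunits are small; lengths were not measured here, and the part of transcript length in these values was not tested.

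Muscle-type myosin heavy chains were present at low CPM, and 2 of the 5 were the called genes of the authors' deposited table. MYH1, an adult fast skeletal heavy chain, was at 4.59, 3.88 and 3.11 CPM in the high libraries and 1.85, 1.58 and 1.15 CPM in the low ones. The groups did not overlap, and low library 2 was in the middle of its group. Its counts were 82, 74 and 56 reads in high and 37, 21 and 22 reads in low libraries, and the high mean was 2.53 times the low mean. MYH3, the embryonic skeletal heavy chain, was at 5.04, 4.56 and 5.33 CPM in high and 3.1, 1.43 and 1.78 CPM in low libraries, from 87 to 96 reads in high and 19 to 62 in low. Its groups did not overlap either, and the high mean was 2.37 times the low mean. The authors' deposited table gave log2 folds, low over high, of -1.34 for MYH1 and -1.22 for MYH3, with adjusted p values of 0.023 and 0.047. Limma gave log2 differences of -0.94 ± 0.17 (SE, adjusted p = 0.145) for MYH1 and -0.98 ± 0.21 (SE, adjusted p = 0.168) for MYH3. Without low library 2 limma called both lower, at -0.96 (adjusted p = 0.0241) and -0.82 (adjusted p = 0.033). Both differences were thus as large, or nearly so, without low library 2.

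The other members of this class did not share the pattern of MYH1 and MYH3. MYH8, the perinatal skeletal chain, was at 2.07, 1.21 and 2.33 CPM in high and 1.2, 4.21 and 2.25 CPM in low libraries, and its groups overlapped. In the RefSeq table MYH8, MYH1 and MYH3 lie in 1 cluster, with 2 protein-coding genes between MYH8 and MYH1 and 1 between MYH1 and MYH3. These chains are close in sequence, and the sources used here do not say how reads that fit several of them were counted, so the split between them is uncertain. MYH7, the slow and cardiac chain, was at 18.2, 17.6 and 12.2 CPM in high and 24.6, 16.5 and 15.2 CPM in low libraries, and MYH11, the smooth muscle chain, at 0.733 to 1.58 CPM in all 6. Neither separated the groups. Of 17 listed skeletal muscle markers 5 were measured (ACTA1, DES, TNNC2, ATP2A1 and ACTC1), and they summed to 25.5 to 28.1 CPM in high and 23.2 to 30.2 CPM in low libraries. Among them TNNC2, the fast skeletal troponin C, was at 4.93, 4.72 and 5.38 CPM in high and 2.75, 6.01 and 2.56 CPM in low libraries and was called lower without low library 2 (log2 difference -0.72, limma adjusted p = 0.0161), and ACTC1, the cardiac actin, averaged 12 CPM in low and 9.3 CPM in high libraries without overlap (limma adjusted p = 0.362). The muscle regulators MYOD1, MYOG and MYF5 and the creatine kinase CKM were not analysed here, and the part of muscle-like expression in the MYH1 and MYH3 values was not tested.

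**Figure D3:**
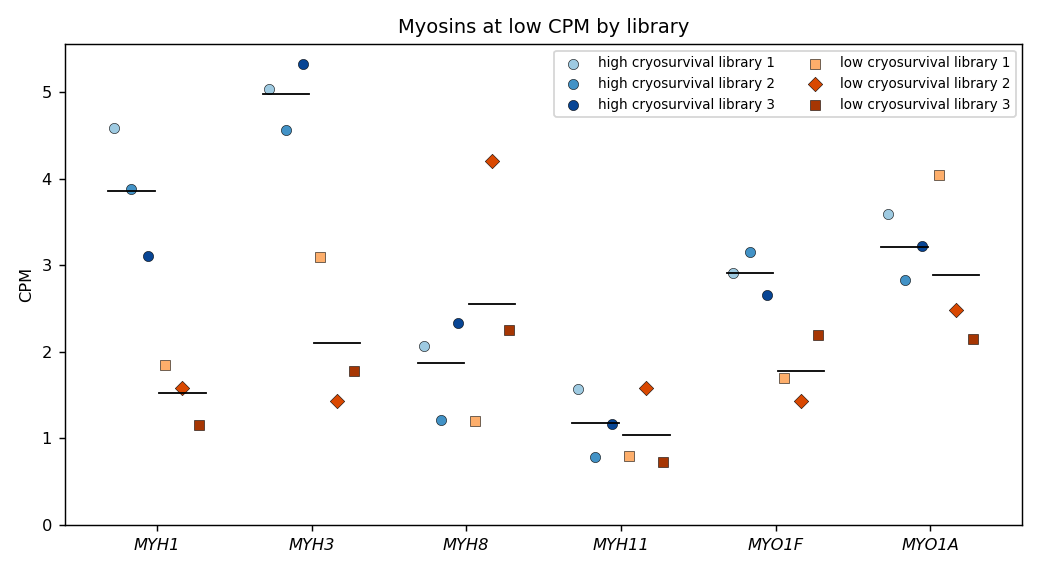
CPM (linear axis from 0) of 6 myosin genes at low CPM in each of the 6 libraries; horizontal lines are group means. For MYH1, MYH3 and MYO1F all 3 low cryosurvival libraries lie below all 3 high ones, and for MYH8, MYH11 and MYO1A the groups overlap.

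Unconventional myosins carry cargo and link membranes to actin. Of the 9 measured, 4 were higher and 5 lower in low cryosurvival, with a median log2 difference of -0.14. In low library 2, 7 of the 9 lay below all other libraries, where 35.5% of all genes did. MYO1F, a class I myosin best known from leukocytes, was the only one whose groups did not overlap, at 2.91, 3.15 and 2.66 CPM in high and 1.7, 1.43 and 2.2 CPM in low libraries. Its log2 difference was -0.50 ± 0.14 (SE, limma adjusted p = 0.248), and -0.41 without low library 2 (limma adjusted p = 0.0556). The immune markers measured, CD14 and CD74, 2 of 7 listed, summed to 2.88 to 3.81 CPM in high and 2.77 to 4.94 CPM in low libraries. MYO19, which moves mitochondria along actin, had the most negative log2 difference of the class, -0.56 (limma adjusted p = 0.759). MYO19 was at 181, 176 and 144 CPM in high libraries and 161, 49.3 and 179 CPM in low libraries, and without low library 2 the difference was 0.03, so that library set the value. MYO9B did the same, at 156 to 162 CPM in high libraries, 169 and 160.0 CPM in low libraries 1 and 3 and 63.3 CPM in low library 2. MYO1C, a class I myosin of the plasma membrane, had a log2 difference of 0.02 (95% interval -0.50 to 0.55). MYO10, a filopodial motor, MYO1D and MYO1C lay above all high libraries in low libraries 1 and 3 and were lowest in low library 2. The 2 that were not lowest in low library 2 were MYO6, which walks toward the minus end of the filament and was highest there, at 105 CPM against 67.3 to 84 CPM, and MYO1A, at 2.48 CPM in that library and 2.15 to 4.04 CPM in the other 5.

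The actins themselves varied little. ACTB was at 16361, 16715 and 16399 CPM in high and 15169, 16696 and 14469 CPM in low libraries, a log2 difference of -0.10 (95% interval -0.37 to 0.18). ACTG1, the other cytoplasmic actin, was at 6895, 7169 and 6597 CPM in high and 7506, 7429 and 7180 CPM in low libraries, with no overlap, and its log2 difference was 0.10 (-0.16 to 0.36, limma adjusted p = 0.838). Low library 2 was inside the range of the other 5 for both. ACTG2, the enteric smooth muscle actin, was at 2.73 to 4.44 CPM in the other libraries and 8.04 CPM in low library 2. The filament-bundling actinins ACTN4 and ACTN1 had log2 differences of 0.06 and 0.13, and ACTN1 without low library 2 was at 0.26 (limma adjusted p = 0.103). ACTN3, the fast muscle actinin, was at 1.36 to 3.04 CPM with overlapping groups. Tropomyosins, which coat the filament and set which myosins may bind, gave a median of -0.03. TPM4 was within 1940 to 2076 CPM in all 6 libraries, with an interval of -0.30 to 0.21 for its difference. TPM3 was at 635, 631 and 448 CPM in high and 705, 495 and 714 CPM in low libraries, so high library 3 and low library 2 were its lowest. TPM2 rested on single libraries, at 12 CPM in high library 3 and 3.6 to 7.43 CPM in the others, and TPM1 was lowest in low library 2, at 55.6 CPM against 72.6 to 97.4 CPM.

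Arp2/3 subunits followed low library 2 more than the groups. Of the 9 measured, 8 were higher there than in any other library, where 34.4% of all genes were. The median log2 difference of the 9 was 0.04 with all libraries and -0.04 without low library 2. ARPC1B, the regulatory subunit prominent in blood cells, had the largest log2 difference, 0.49 ± 0.25 (SE, limma adjusted p = 0.536). It was at 76.4, 97 and 93.1 CPM in high and 120, 177 and 90.3 CPM in low libraries, and its difference was 0.24 without low library 2. ARPC2, which forms the core of the complex, was at 810, 788 and 804 CPM in high and 749, 945 and 778 CPM in low libraries. The exception was ACTR2, the Arp2 subunit itself, at 427, 432 and 423 CPM in high and 407, 344 and 379 CPM in low libraries. All 3 low libraries lay below the high ones, low library 2 the furthest, and the log2 difference was -0.19 ± 0.12 (SE, limma adjusted p = 0.647). ACTR3, its partner Arp3, was at 428 to 501 CPM with overlapping groups, and low library 2 was its highest where it was the lowest of ACTR2.

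The other actin-related proteins belong to dynactin and to chromatin complexes. ACTR1B, a minor subunit of the dynactin filament, was at 49.3, 50 and 53.3 CPM in high and 43.2, 36.1 and 41.2 CPM in low libraries. Its log2 difference was -0.34 ± 0.12 (SE), without overlap, and it was not called (limma adjusted p = 0.352). ACTR1A, the main dynactin filament subunit, was at 185, 199 and 192 CPM in high and 209, 205 and 198 CPM in low libraries, a difference of 0.09 (95% interval -0.17 to 0.35). ACTR8, a subunit of the INO80 chromatin remodeller, was at 33.4, 32 and 32.6 CPM in high and 35.8, 40.5 and 38 CPM in low libraries, a small difference of 0.22 ± 0.11 (SE, limma adjusted p = 0.549) without overlap. ACTR10 and ACTR6 had overlapping groups.

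Of the 5 capping protein and cofilin genes 4 had negative log2 differences, and none passed the test. CAPZB, the beta subunit of capping protein, was at 646, 650 and 705 CPM in high and 569, 596 and 546 CPM in low libraries. CAPZA1, an alpha subunit, was at 366, 355 and 385 CPM in high and 326, 303 and 330 CPM in low libraries. Neither pair of groups overlapped, and low library 2 was on the same side as the other low libraries. The log2 differences were -0.23 ± 0.11 for CAPZB and -0.21 ± 0.11 for CAPZA1 (SE, limma adjusted p = 0.526 and 0.574), and CAPZA2, the second alpha subunit, was at 0.11 (95% interval -0.16 to 0.38). CFL2, the muscle cofilin, was at 45.8, 50.2 and 47.5 CPM in high and 42.4, 37.3 and 39.4 CPM in low libraries, also without overlap (log2 difference -0.26 ± 0.12, SE, limma adjusted p = 0.45). CFL1, the main non-muscle cofilin, was at 1709, 1722 and 1938 CPM in high and 1477, 2271 and 1495 CPM in low libraries, so low libraries 1 and 3 lay below every high library and low library 2 above, as for the 4 light chains MYL6, MYL12A, MYL12B and MYL9. Ezrin, the linker of apical microvilli in the trophectoderm, was measured as EZR at 5405, 5775 and 4520 CPM in high and 5498, 3806 and 5123 CPM in low libraries, with low library 2 lowest and high library 3 next. MSN and RDX, which encode moesin and radixin, had log2 differences of 0.11 and 0.12 (limma adjusted p = 0.889 and 0.907).

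Ratios of related genes within a library were then compared, as a description of 12 pairs chosen after the values were seen, without a test. How reads that fit both genes of a pair were counted is not stated in the sources used here. For 4 of the 12 pairs the 3 low and 3 high libraries did not overlap, and for 8 they did; single genes failed to overlap in 21.0% of the table, and no such share was computed for pairs. ACTB over ACTG1 was 2.33 to 2.49 in high and 2.02 to 2.25 in low libraries. ACTR1A over ACTR1B was 3.6 to 3.98 in high and 4.82 to 5.68 in low libraries, and CAPZA1 over CAPZA2 was 5.35 to 6.56 and 4.35 to 4.94. MYL12A over MYL12B was 6.68 to 7.51 in high and 7.79 to 8.06 in low libraries, although each of these 2 genes alone overlapped. In these 4 pairs low library 2 was on the same side as the other low libraries.

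**Figure D4:**
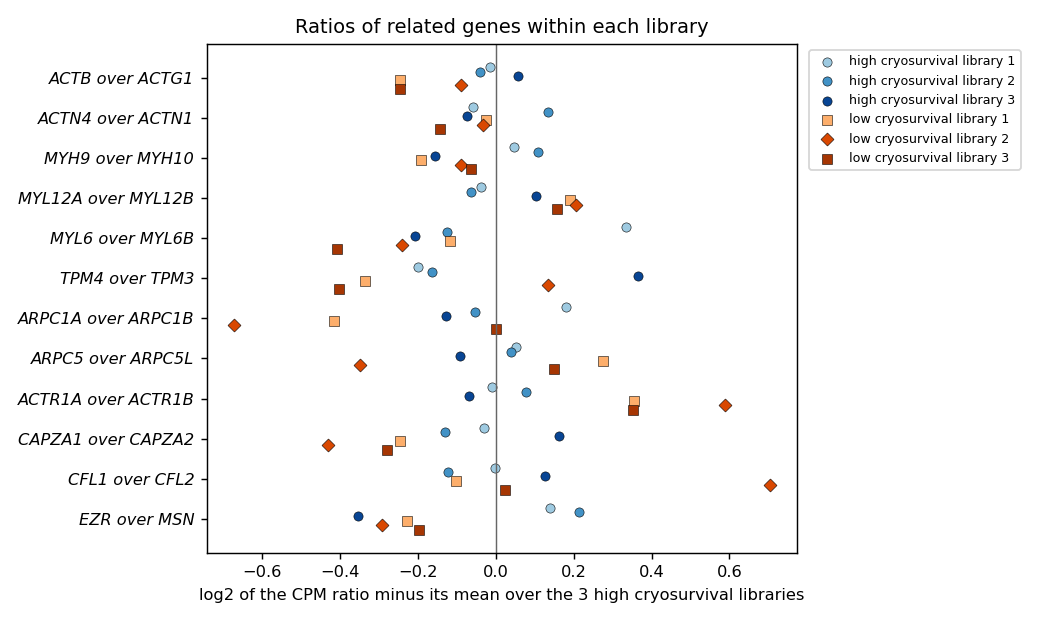
CPM ratio of 12 pairs of related genes in each of the 6 libraries, on a log2 scale as the deviation from its mean over the high cryosurvival libraries (x axis). All 3 low libraries lie on 1 side of all 3 high libraries for ACTB over ACTG1, MYL12A over MYL12B, ACTR1A over ACTR1B and CAPZA1 over CAPZA2.

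Regulators and partners of the actin system outside these families were described from 5 lists by role, with 99 measured genes. By limma 0 of the 99 passed, with 13 at an unadjusted p below 0.05, where 12.0% of all genes had one, and their median log2 difference was 0.08. The authors' deposited table called 1, LCP1, an actin bundler also called L-plastin and typical of leukocytes. Of all genes it called 1.20%, with 0.912% higher in low cryosurvival. LCP1 was at 2.02, 4.25 and 4.33 CPM in high and 11.4, 8.49 and 6.02 CPM in low libraries, without overlap, with an adjusted p of 0.046 in the authors' deposited table and a log2 difference of 1.10 ± 0.29 (SE, adjusted p = 0.23) by limma. Its relative PLS3, singled out after its value was seen, was at 3.98, 3.83 and 3.83 CPM in high and 6.29, 6.76 and 7.22 CPM in low libraries, a log2 difference of 0.67 ± 0.11 (SE, limma adjusted p = 0.142). Both bundlers were thus higher in each low cryosurvival library, low library 2 included. Of all genes, 10.4% separated the groups in that direction, and PLS1 of the same list was at -0.23 with overlapping groups.

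Without low library 2 limma called 16 of the 99 genes (16.2%), 15 of them higher in low cryosurvival, against 13.6% of all genes called and 8.15% called higher. PPP1R12A, the subunit that directs the myosin light chain phosphatase to myosin, was among those called higher. It was at 27.8, 32.4 and 26.2 CPM in high and 48.6, 37 and 41 CPM in low libraries. The groups did not overlap, and the log2 difference over all 6 libraries was 0.53 (limma adjusted p = 0.248); this gene was singled out after its values were seen.

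Of the other genes called without that library, those outside the naming rule were named after their values were seen. In 4 of the 5 lists the called shares were 19.2% of the crosslinking and adhesion list, 30% of the ERM partner and SRF list, 9.52% of the nucleation and elongation list and 9.09% of the monomer binding and severing list, against 13.6% of all genes, so the last 2 shares were below that of all genes. In the crosslinking and adhesion list 5 of 26 genes were called without low library 2, each higher, among them the filamin FLNC, the spectrin SPTBN1, the talin TLN1 and PLS3. LASP1, its member with the highest CPM, was at -0.05 with all libraries and 0.17 without low library 2. Among ERM partners and SRF pathway genes 3 of 10 were called without low library 2, each higher. They were the kinases STK10 and SLK, which phosphorylate the ERM linkers, and the ERM-binding receptor CD44. CD44 rested on few reads, 14, 6 and 18 in high and 53, 17 and 31 in low libraries. STK10 was at 14.8, 22.7 and 23.1 CPM in high and 56.1, 21.1 and 38.1 CPM in low libraries. SLC9A3R1, the scaffold that binds ezrin in microvilli, was lower in all 3 low libraries, at 3521, 3898 and 3595 CPM in high and 3116, 2016 and 2749.8 CPM in low (log2 difference -0.50 ± 0.18, SE, limma adjusted p = 0.341). In the nucleation and elongation list 2 of 21 were called without low library 2, WASF2 higher and EVL lower. Its named members were the formin FHOD1, at -0.53 (limma adjusted p = 0.309), and the Arp2/3 activator CTTN, at 0.22 (0.562). In the monomer binding and severing list 2 of 22 were called without low library 2, SVIL and LMOD1, both higher. LMOD1, a filament nucleator of smooth muscle, was at 0.728, 0.944 and 0.666 CPM in high and 1.6, 2.03 and 1.68 CPM in low libraries, and PFN1, which feeds actin monomers to growing ends, had a log2 difference of -0.16 (limma adjusted p = 0.876).

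**Figure D5:**
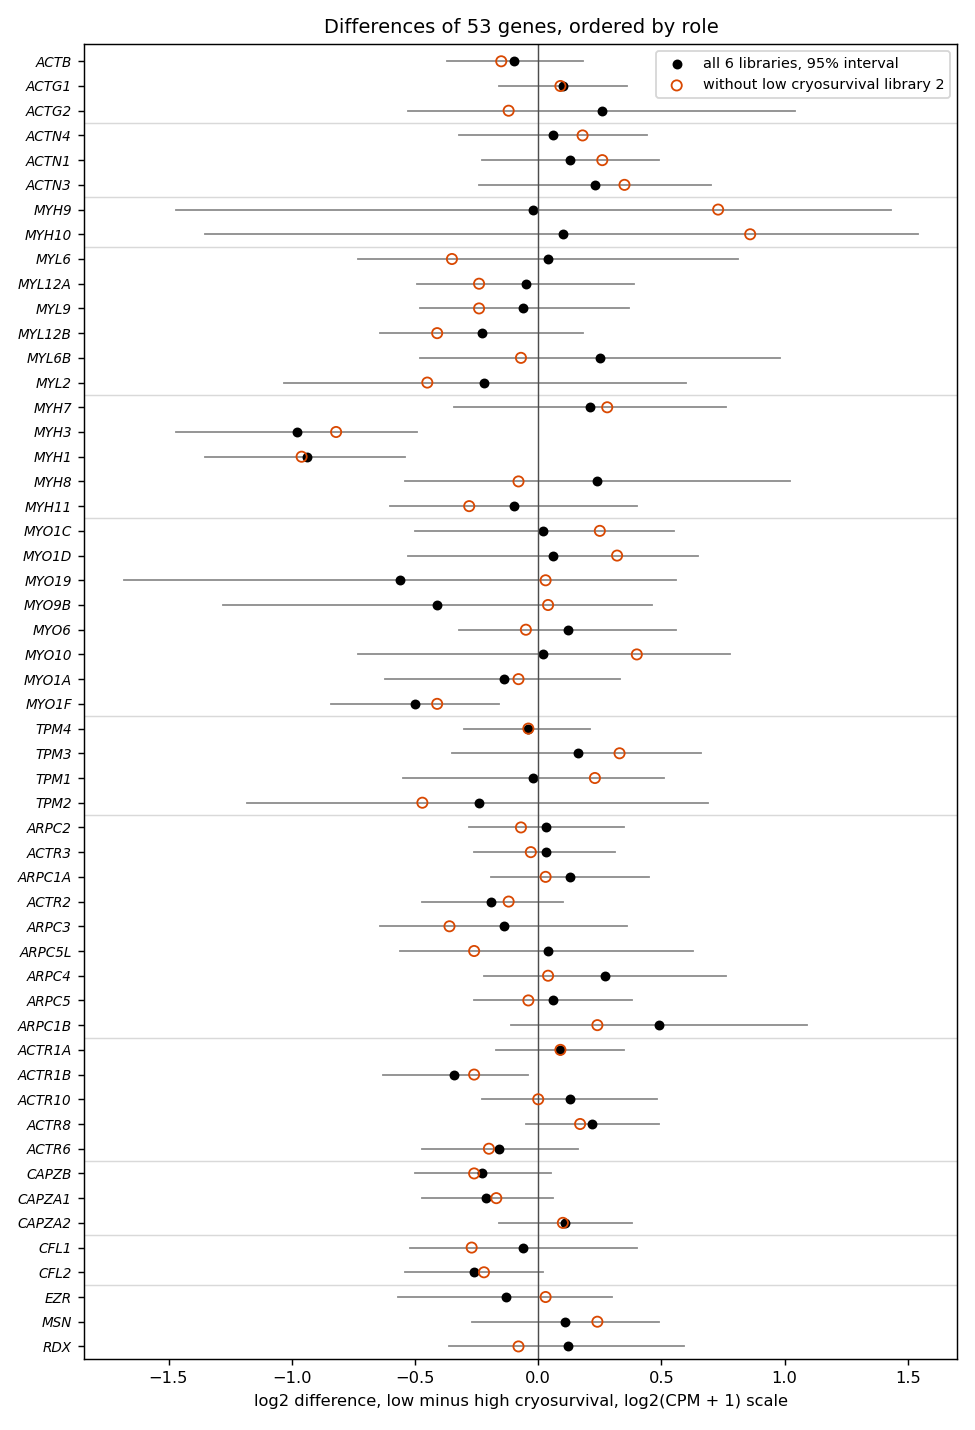
Log2 difference (x axis, low minus high cryosurvival) of 53 of the 54 genes (y axis, ordered by role): black points with the 95% interval by limma, not adjusted for the number of genes, from all 6 libraries, and open circles without low cryosurvival library 2. MYH1, MYH3, MYO1F and ACTR1B have intervals that exclude 0, and the open circles of MYH9 and MYH10 lie far to the right of their black points.

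Without low library 2 the count over the 54 genes came to 4 called by limma (7.41%), MYH10 higher and MYH1, MYH3 and MYL12B lower in low cryosurvival, against 13.6% of all genes, of which 8.15% were higher and 5.48% lower. The remaining libraries did not overlap for 29 of the 54 genes (53.7%), against 55.1% of all genes. These shares of the cytoskeletal genes were near or below those of the table. Low library 2 lay above all other libraries in 22 of the 54 genes (background 34.4%), below them in 18 (35.5%) and inside their range in 14.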

How the data were processed

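RNA sequencing libraries of 6 bovine blastocyst samples were used, 3 per group by the cryosurvival stated in the labels. Per the submitters' processing notes HTSeq 0.5.4p2, DESeq 1.12.1, TopHat2 2.0.8, Cufflinks 2.1.1, Bowtie2 2.1.0 and SAMtools 0.1.18 were used, with no role stated. The genome build, the strand setting, the handling of multi-mapping reads and any low-expression filter are not given in the sources used, and no coordinates are printed; overlapping or antisense genes cannot be told apart. The authors' deposited table holds CPM values per library and, per gene, a log2 fold and raw and adjusted p-values; its fold, high over low, was turned to low over high. That the values are CPM was worked out from them: of those up to 1000 CPM, 100.0% lay within 0.1 read of a whole number of reads, with 1 read worth 0.0499 to 0.0751 CPM. The column of low library 2 sums to 1.1 times its scaled library size, and the other columns to 0.961 to 0.996 times theirs.

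Log2(CPM + 1) values of all 9537 genes were tested with limma 3.58.1 in R 4.3.3, without covariate, and checked on simulated data. With a pseudocount of 1, differences of genes at low CPM are understated. The pathway and marker lists, the roles and the members were chosen with earlier results of these data known. Named genes were those called by limma or in the authors' deposited table, members at 1 CPM or more whose groups did not overlap, and in each role the 2 with the highest mean CPM and the 1 with the largest log2 difference; in each pathway list, called genes, the highest and the most different. Pairs for ratios were chosen after the values were seen. Alternatives were a pseudocount of 0.1, a minimum mean of 5 CPM, a variance trend, a replicate block, voom on the recovered reads (chosen after seeing the data) and each library left out. An exact permutation test of 3 against 3 libraries cannot go below 0.1 and was not used. The results of 1 of the 5 role lists, and of some genes the naming rule selects, are not reported here.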

Additional observations from a re-analysis of the deposited data

How the results depend on the processing

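Over all genes limma called 0, and 7 with a pseudocount of 0.1 and 7 with a minimum mean of 5 CPM; a variance trend and voom gave 0. None of these settings called any of the 54 cytoskeletal genes or the 99 other genes that it tested, or turned the sign of a named gene; the minimum of 5 CPM tested 37 of the 44 named genes and left out MYH1, MYH3, MYO1F, MYL6B, ACTG2, ACTN3 and LMOD1. With each library left out in turn the calls ranged from 0 to 1300 over all genes, from 0 to 4 over the 54 genes and from 0 to 16 over the 99, and the median log2 difference of the 54 genes from -0.05 to 0.02; the calls came only without low library 2. Leaving out 1 library turned the sign of 16 of 44 named genes, 9 of them without low library 2. Their ranges were -0.44 to 0.73 for MYH9, -0.36 to 0.86 for MYH10, -0.35 to 0.28 for MYL6, -0.24 to 0.05 for MYL12A, -0.07 to 0.50 for MYL6B, -0.89 to 0.03 for MYO19, -0.14 to 0.25 for MYO1C, -0.54 to 0.17 for TPM2, -0.01 to 0.33 for TPM3, -0.12 to 0.47 for ACTG2, -0.03 to 0.18 for ACTN4, -0.03 to 0.08 for ACTR3, -0.07 to 0.10 for ARPC2, -0.27 to 0.04 for CFL1, -0.24 to 0.03 for EZR and -0.18 to 0.17 for LASP1. MYH1 ranged from -1.06 to -0.83 and MYH3 from -1.20 to -0.82. The cause was not tested. The planned count-model tests were not run, because the decimal commas of the table kept its reads from being checked as counts; voom took their place. Deviations of same-numbered libraries from their group means correlated at 0.12, -0.26 and -0.31 over all genes. Such deviations sum to 0 within a group, so these values cannot show whether the numbers mark pairs. The replicate block called 0 genes and 0 of the 54 and of the 99, with a median of 0.02. At 1 read for 0.0499 to 0.0751 CPM, the genes below 1 CPM rest on few reads.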

Other observations

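Over all 9537 genes the deviations of high library 3 and low library 2 from their own group means correlated at 0.37, the highest of the 9 pairs of a high and a low library, and those of high library 3 and low library 1 at -0.36. The genes share their libraries, so this is a description. Among the high libraries, high library 3 had the lowest CPM of MYH9, MYH10, MYO19, TPM3 and EZR and the highest of MYL6, MYL12A, CFL1 and ARPC3, in each case the side of the high mean on which low library 2 lay; these genes were picked after their values were seen. Other members went the opposite way: high library 3 was the lowest high library for MYL9, where low library 2 was the highest of all, and the highest high library for MSN, TPM1 and MYO9B, where low library 2 was the lowest.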
